A study of Monodelphis domestica with 2 samples.

Results

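The genes described here are the voltage-gated sodium and calcium channels, the hyperpolarization-activated (HCN) channels, the intracellular calcium release channels and the transient receptor potential (TRP) channels measured in nuclei of opossum V1, the primary visual area of the neocortex. The species is Monodelphis domestica, a short-tailed marsupial. They were taken by symbol, as every gene whose symbol begins with SCN and a digit, SCNN, CACN, HCN and a digit, RYR and a digit, ITPR and a digit, or TRPC, TRPM or TRPV and a digit. This gave 50 of 30800 genes in the count matrices, of which 11590 carry a symbol. TRPC4AP among them encodes a protein that binds a TRP channel and is not itself a channel. Other genes of these families had no such symbol in the files, SCN8A, CACNA1D, CACNA1G, CACNA1I and TRPC5 among them, and were not analysed here.

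Nuclei came from 2 adult male opossums, 1 aged 1.5 years and 1 aged 2 years, with no treatment named, and tissue of both hemispheres was pooled within each animal. Nuclei stained with the DNA dye Draq5 were sorted and loaded as 2 droplet libraries per animal. Cell class, subclass and type of each nucleus are those assigned by the study, which named subclasses from canonical markers and drew the 4 intratelencephalic (IT) subclasses, IT_A to IT_D, by unsupervised clustering. The animal is the replicate throughout (n = 2), and its pair of libraries was counted once.

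Voltage-gated sodium channels carry the rising phase of the action potential. Each has a pore-forming alpha subunit and smaller beta subunits that adjust its gating and placement. Voltage-gated calcium channels turn depolarization into calcium entry, and their alpha1 subunit is joined by beta and alpha2delta subunits. Several genes named as calcium channel gamma subunits serve mainly as partners of AMPA-type glutamate receptors. HCN channels open on hyperpolarization and shape dendritic integration and rhythm. Ryanodine and inositol trisphosphate (IP3) receptors release calcium from the endoplasmic reticulum, and TRP channels are mostly non-selective cation channels.

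The 4 libraries held between 7055 and 9664 labelled nuclei each, with 51789830 to 65195017 unique molecular identifiers (UMIs) in total and a median of 5834 to 7040 UMIs per nucleus. Counts were summed per animal and subclass into 36 sums over 18 subclasses and expressed as CPM, that is, counts scaled to 1 common total for every sum. Median depth per nucleus lay between 4682 and 10712 UMIs in neuronal subclasses and between 1402 and 2781 in non-neuronal ones. Pairs of libraries shared 13 to 26 nucleus barcodes. Defining markers followed the labels, with SST at 350.3 and 291 CPM in Sst, VIP at 242 and 239 in Vip, PDGFRA at 984 and 985 in oligodendrocyte precursors (OPC), MBP at 10759 and 10970.2 in oligodendrocytes (OD) and CSF1R at 986 and 1020.5 in microglia, for animals 1 and 2 in that order. FREM1 was an exception, reaching 58.96 and 76.8 CPM in Lamp5 beside 50.8 and 73.8 in Frem1. The endothelial sums rest on 29 and 36 nuclei.

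Neuronal transcripts were also counted in glial nuclei. GAD2, an enzyme of GABA synthesis, stood in OD, OPC, astrocytes (Astro) and microglia (Micro) at between 5.4 and 13.9% of its CPM in all neuronal nuclei summed. GAD1, the other such enzyme, stood at between 7.80 and 29.3%. NEUROD6, a transcription factor of glutamatergic neurons, was at between 12.3 and 35.0%, the latter from 3 UMIs in microglia of animal 1. Levels of a channel gene in glia up to 35.0% of its neuronal level are read here as background.

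Of the 50 members, 41 were measured, meaning at least 10 CPM and at least 10 UMIs in the same subclass in both animals. The other 9 were SCN10A, SCN11A, CACNA1S, CACNG1, SCNN1B, SCNN1G, TRPM1, TRPV4 and TRPV5, which are better known from sensory neurons, muscle, epithelia or retina. SCN11A came closest of the sodium channels, at 8.08 and 16.9 CPM in pyramidal tract neurons of layer 5 (L5PT). The measured members were 4 sodium channel alpha subunits and 4 beta subunits, 5 calcium channel alpha1 subunits, 4 calcium channel auxiliary subunits, 3 gamma subunits, 4 HCN channels, 6 calcium release channels, 5 TRPC, 3 TRPM and 2 TRPV channels, and TRPC4AP.

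The highest subclass was the same in both animals for 27 of the 41 measured members (65.9%), against 58.4% of 7997 measured genes with a symbol. In 26 (63.4%, against 54.4%) neither animal's value in the subclass with the highest mean overlapped those of the next subclass. There were 9 members with at least 25% of the CPM summed over subclasses in 1 and the same subclass in both animals (22%, against 17.6%). These shares lie somewhat above those of other measured genes, and no test was made of the difference. Sst led for 4 members in both animals, Pvalb and microglia for 3 each, and no member had IT_A, IT_C or near-projecting layer 5 neurons (L5NP) as its highest subclass in both.

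**Figure D1:**
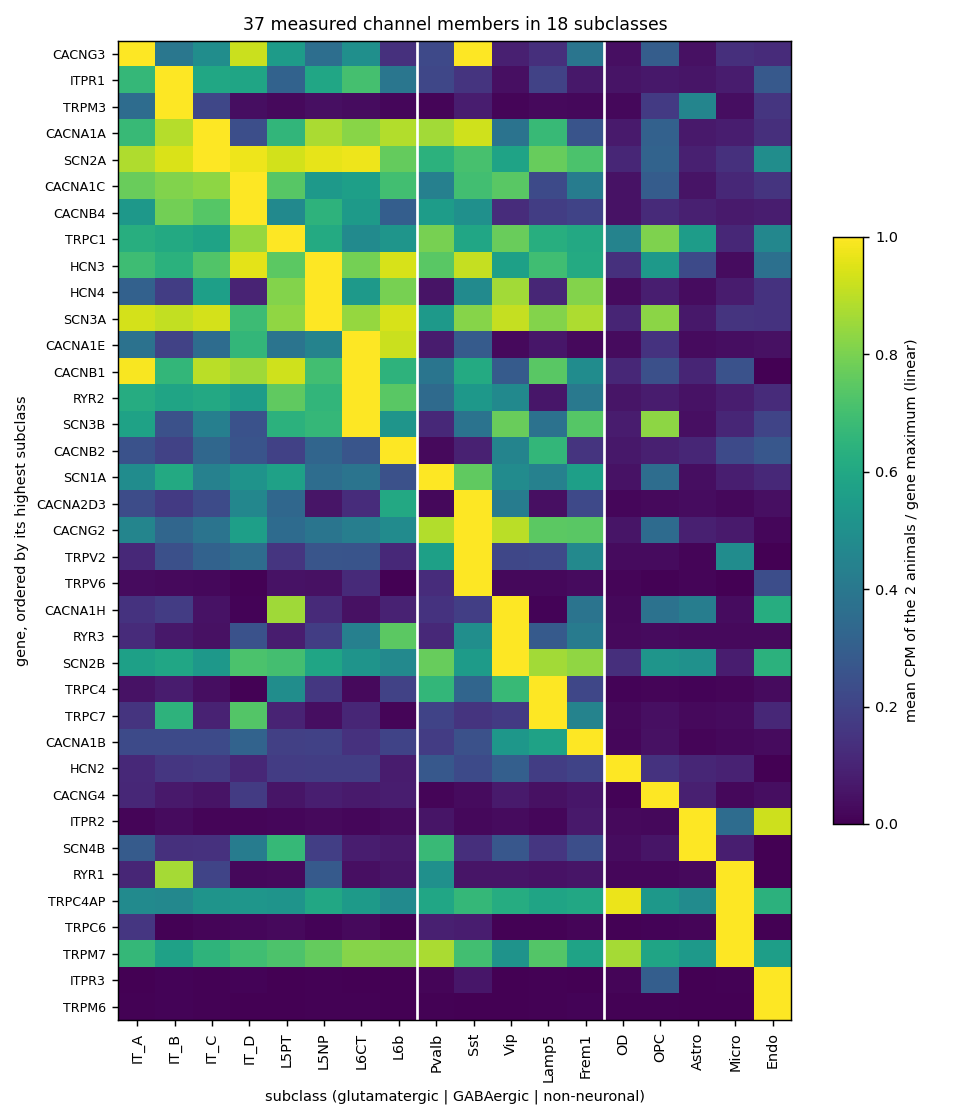
Mean CPM of the 2 animals for 37 measured members (rows, each divided by its own maximum, linear color scale from 0 to 1) in 18 subclasses (columns, glutamatergic, GABAergic and non-neuronal from left to right). SCN2A and SCN3A are near their maximum in most neuronal columns, whereas TRPM6, TRPC6 and CACNG4 are bright in 1 column.

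SCN1A, SCN2A and SCN3A, all sodium channel alpha subunits, were found across the neuronal subclasses, with different peaks. SCN1A (Nav1.1), the alpha subunit best known from parvalbumin interneurons, was highest in Pvalb at 973 and 987 CPM and next in Sst at 741 and 742, and the animals did not overlap between these subclasses. Among glutamatergic neurons it ranged from 281 and 204 in layer 6b neurons (L6b) to 569 and 620.5 in IT_B. SCN2A (Nav1.2), the main early alpha subunit of excitatory neurons, lay between 284 and 396 CPM in the glutamatergic subclasses and between 198 and 299 in the GABAergic ones, so that the classes overlapped. SCN3A (Nav1.3), often described as an embryonic isoform in rodents, lay between 216 and 325 CPM in every neuronal subclass but Pvalb, where it was lower at 175 and 164.

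**Figure D2:**
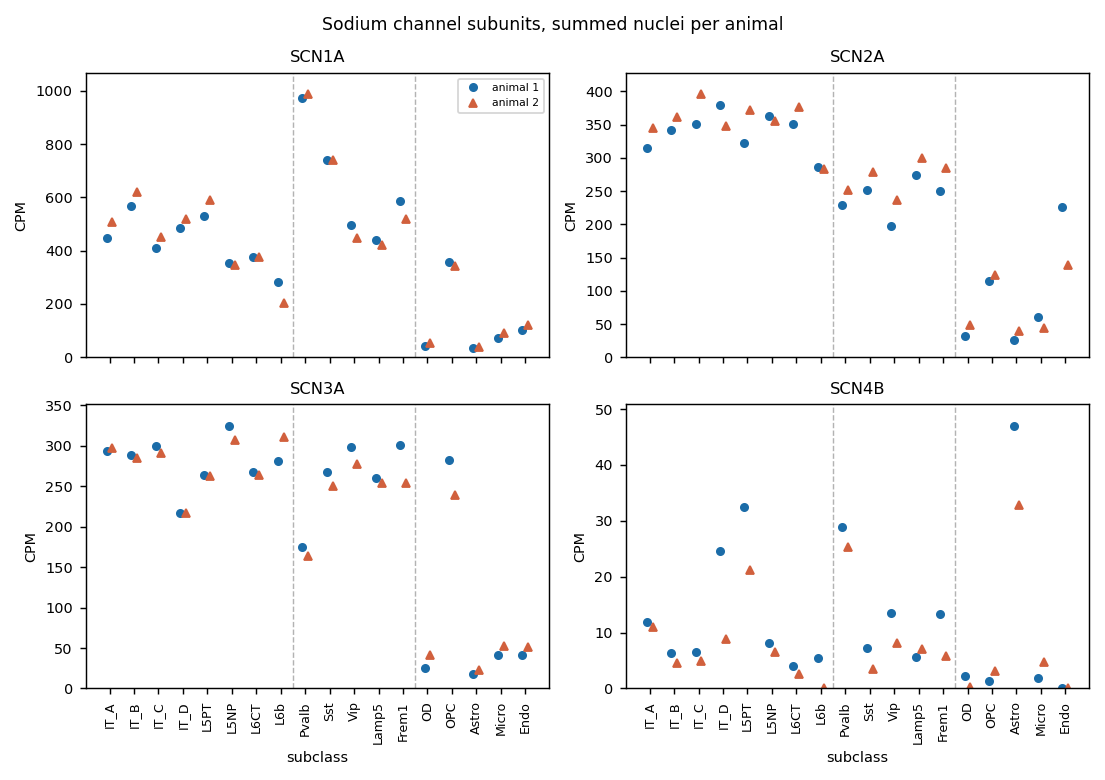
CPM (linear y axes from 0) of SCN1A, SCN2A, SCN3A and SCN4B in each of 18 subclasses, with 1 circle for animal 1 and 1 triangle for animal 2, and dashed lines between the glutamatergic, GABAergic and non-neuronal classes. SCN1A peaks in Pvalb at 973 and 987 CPM, SCN3A dips there to 175 and 164, and SCN4B is high in Astro at 47.1 and 32.8.

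Beta subunits differed in where they peaked. SCN4B, which in rodents accompanies resurgent sodium current in fast-firing neurons, had 3 high subclasses. These were Astro at 47.1 and 32.8 CPM, L5PT at 32.5 and 21.2 and Pvalb at 28.9 and 25.4. The astrocyte level was above that of all neurons summed in both animals, at 383 and 334% of it. SCN3B was highest in layer 6 corticothalamic neurons (L6CT) at 43.1 and 40.9 CPM and lowest among neurons in Pvalb at 6.36 and 3.39. SCN2B varied less, from 16.3 and 13.9 in L6b to 31.6 and 32.7 in Vip among neurons.

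The 5 measured calcium channel alpha1 subunits had different leading subclasses. CACNA1A, the P/Q-type subunit that drives fast transmitter release, had its highest mean in IT_C, at 968 and 1174 CPM, with Sst in the same range at 981 and 1006, and was lowest among neurons in IT_D and Frem1, at 238 and 273 and 235 and 320.4. CACNA1B, the N-type subunit that also serves release, had the reverse extreme, with 2203 and 2165 CPM in Frem1. It followed with 1299 and 1218 in Lamp5 and 1267 and 1036 in Vip, against 395 and 386 in Pvalb. Pvalb and Sst thus sat at the high end for the P/Q type, whereas Frem1, Lamp5 and Vip sat at the high end for the N type.

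CACNA1E, the R-type subunit, spanned the widest range of neuronal levels among the alpha1 subunits other than CACNA1H. It was at 2989 and 3142 CPM in L6CT and 3009 and 2629.9 in L6b, and at 63.96 and 88.4 in Vip and 50.8 and 100.3 in Frem1. The last pair lies close to the level in OD, 70.4 and 118. CACNA1H, a T-type subunit that opens near rest, was found in a few subclasses of every class. It was highest in Vip at 145 and 131 CPM and L5PT at 101 and 136, followed by Astro at 58.5 and 58.7, Frem1 at 60.6 and 46.1 and OPC at 48.8 and 55.4. In Lamp5 it was at 0.808 and 2.33 CPM and in L6CT at 6.63 and 5.82. Endothelial values were 0 and 173 CPM, the latter from 10 UMIs. CACNA1C, an L-type subunit tied to activity-dependent transcription, was more even among neurons, from 191 and 202 CPM in Lamp5 to 934 and 821 in IT_D.

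Auxiliary subunits also set interneuron subclasses apart. The alpha2delta subunit CACNA2D3 was at 3009.5 and 3204 CPM in Sst and at 52.5 and 82.4 in Pvalb, although the study grouped both as interneurons of medial ganglionic origin. The beta subunit CACNB2 was highest in L6b at 1256 and 1188 CPM and lowest in Pvalb at 31.8 and 33.9. CACNB4, the beta subunit mutated in the lethargic mouse, was lowest among neurons in Vip at 336 and 343 and highest in IT_D at 2645 and 2632. CACNB1 stayed at or under 33.4 CPM in all 18 subclasses.

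The gamma subunits CACNG2 (stargazin), CACNG3 and CACNG4 all act on AMPA receptors. CACNG2 was highest in Sst at 508 and 423 CPM, with Vip overlapping at a mean of 418. CACNG3 was high in IT_A at 549.6 and 639.6, IT_D at 644 and 451 and Sst at 668 and 519, whose values overlapped. CACNG4 marked OPC, at 868 and 845 CPM there, or 47.6 and 48.8% of the sum over subclasses, with IT_D next at 158 and 138.

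The HCN channels described here differed in where they were found. HCN4 was at 58.01 and 60.4 CPM in L5NP, 58.1 and 38.2 in L5PT and 53.7 and 48.3 in Vip, and at 3.52 and 2.86 in Pvalb. HCN2 was highest in OD at 36.8 and 16.2 CPM, from 180 and 62 UMIs, and no neuronal sum exceeded 8.69 CPM. The oligodendrocyte value of animal 1 was far above that of animal 2. HCN3 lay between 11.1 and 28.2 CPM in all neuronal subclasses.

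Among calcium release channels, RYR2 was the broad ryanodine receptor of neurons and RYR3 the selective one. RYR2 was at 746 CPM or more in every neuronal subclass but Lamp5, with L6CT highest at 2224 and 2217, and was at 96.1 and 164 in Lamp5, near its level in microglia, 172 and 189.7. RYR3 was highest in Vip at 1447 and 1448 CPM and L6b at 1064 and 1103, and lowest among neurons in IT_C at 53.7 and 72.1. RYR1, the isoform of skeletal muscle, was highest in microglia at 45.3 and 51.02 CPM, or 30.9 and 28.3% of the sum over subclasses. These values rest on 24 and 32 UMIs and overlapped those of IT_B, 36.9 and 46.5. Pvalb followed at 21.2 and 26.95 CPM.

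The 3 IP3 receptors divided by class. ITPR1, the main neuronal isoform, was highest in IT_B at 1366 and 1577 CPM and at 56.1 and 62.4 in Vip, the lowest neuronal subclass. ITPR2, the main IP3 receptor of astrocytes in rodents, was at 813 and 812 CPM in Astro, 639 and 864 in endothelial nuclei (Endo) and 251 and 320.5 in Micro. No neuronal subclass had over 65.7 CPM of ITPR2. ITPR3, known from epithelia, was at 144 and 363 CPM in Endo, from 7 and 21 UMIs, at 85.3 and 67.2 in OPC and at 15.5 and 15.98 in Sst, and at or under 4.50 CPM elsewhere. Endo held 52.9 and 78.5% of its CPM summed over subclasses.

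TRPC channels, which open downstream of phospholipase C, differed widely from each other in where they were found. TRPC4 was highest in Lamp5 at 627 and 672 CPM, and L5PT stood apart from the other glutamatergic subclasses at 294 and 344, against at most 134 CPM in any other. TRPC7 was highest in Lamp5 at 460.3 and 478, with IT_D at 285 and 403 and IT_B at 283 and 323, and at 41.5 and 48.9 in IT_C. TRPC6 led in microglia at 268 and 223 CPM, or 75.1 and 59.6% of the sum, followed by IT_A at 26.2 and 51.9. TRPC1 was even across neurons, OPC and astrocytes, between 75.4 and 212 CPM, and lower in microglia at 18.9 and 25.5.

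TRPM3, a heat and steroid sensor elsewhere in the nervous system, was highest in IT_B at 483 and 518 CPM, or 35.4 and 38.2% of the sum. Astro followed at 244 and 213, IT_A at 178 and 175 and IT_C at 115 and 99.4, while IT_D was at 10.6 and 27.8. TRPM6, a magnesium channel of kidney and gut, was at 289 and 277 CPM in Endo, from 14 and 16 UMIs, which is 93.2 and 93.2% of the sum, and no other subclass exceeded 3.46 CPM. Of the mural markers in the endothelial sums, PDGFRB and NOTCH3 were at 0 in both animals and RGS5 at 0 and 34.6 CPM, the latter from 2 UMIs, whereas FLT1 was at 2948 and 2281. TRPM7, its widely expressed relative, was at 281 and 255 CPM in microglia and between 131 and 244 in neurons. TRPV6, an epithelial calcium channel, was at 32.7 and 40.3 CPM in Sst, or 59.3 and 54.9% of the sum, and TRPV2 was highest there too, at 14.9 and 17.5.

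**Figure D3:**
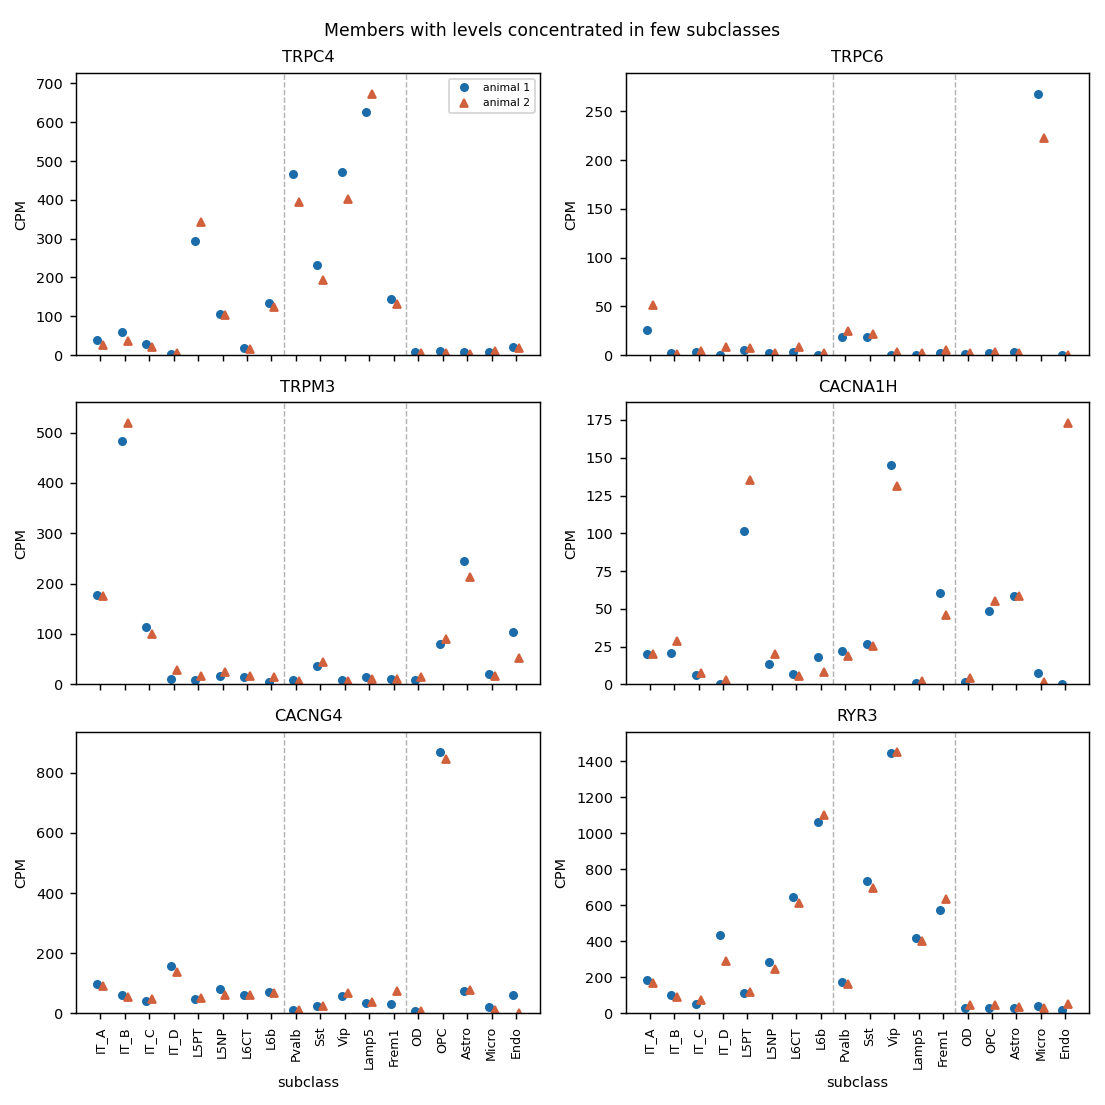
CPM (linear y axes from 0) of TRPC4, TRPC6, TRPM3, CACNA1H, CACNG4 and RYR3 in each of 18 subclasses, with 1 circle for animal 1 and 1 triangle for animal 2, and dashed lines between the classes. TRPC4 peaks in Lamp5 (627 and 672), TRPC6 in Micro (268 and 223), TRPM3 in IT_B (483 and 518) and CACNG4 in OPC (868 and 845), whereas CACNA1H and RYR3 have several high subclasses.

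Differences between groups of subclasses were tested with edgeR on the sums, each subclass weighing equally, and a log2 fold change is the difference of mean log2 levels. Subclass labels were drawn from the same expression values, so the tests describe how far these groups stand apart beyond the spread between 2 animals. Group levels are given as the mean CPM over the subclasses of a group, for animal 1 and animal 2.

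The first comparison asked which channels separate neurons from non-neuronal cells. Most did so toward neurons, and ITPR2, ITPR3, TRPM6 and TRPM3 went the other way, though the calls of TRPM6 and TRPM3 depended on the fit. Of 46 members tested, 32 were higher in neurons and 4 lower, 36 in all (78.3%), against 44.7% of 17227 genes tested (30.2% higher, 14.6% lower). The median log2 fold change was 2.28 for the members and 0.44 for all genes. Among genes with at least 20 CPM in the same group in both animals, 29 of 33 members and 67.1% of all genes passed.

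CACNA1B had 728 and 698 CPM in neurons and 35.1 and 72.3 in non-neuronal subclasses and a log2 fold change of 3.85 ± 0.11 (SE) with edgeR adjusted p = 7.45e-22. The neuronal and non-neuronal sums of CACNA1B and RYR3 did not overlap at all. TRPC4, RYR3, CACNA2D3, CACNG2, RYR2 and HCN4 were higher by 2.79 to 3.64 on the log2 scale. SCN1A (log2 fold change 2.69), SCN3A (2.58) and SCN2A (2.42) were higher in neurons as well, although OPC overlapped neurons in SCN1A and SCN3A.

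On the non-neuronal side, ITPR2 had 24.2 and 19.98 CPM in neurons and 349 and 406 in non-neuronal subclasses and a log2 fold change of -2.68 ± 0.12 (SE) with edgeR adjusted p = 1.93e-17. ITPR3 was lower in neurons with a log2 fold change of -2.60 ± 0.61 (SE) with edgeR adjusted p = 0.000715, and its 144 and 363 CPM in Endo weigh in that value. TRPM6 rests on Endo alone, and its adjusted p in edgeR was 0.0447 and, with the animal as a block, 0.0599. TRPM3 was called lower in neurons at a log2 fold change of -0.69 ± 0.20 SE with edgeR adjusted p = 0.00568, yet the direction turned when counts were summed over each class, so that TRPM3 is better read by subclass. CACNA1H (edgeR adjusted p = 1), TRPC6 (0.905) and HCN2 (0.484) did not pass, each with levels on both sides. Of 28 partner genes tested, a list of proteins that bind or regulate these channels or pump calcium, 18 were higher in neurons and 5 lower.

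The second comparison set the 5 GABAergic against the 8 glutamatergic subclasses. Averaged over subclasses, GABAergic neurons had more TRPC4, TRPC7, RYR3 and N-type CACNA1B, and glutamatergic neurons more R-type CACNA1E, ITPR1, TRPM3, RYR2 and the beta subunits CACNB2 and CACNB4. TRPM3 averaged 501 CPM in IT_B. In L5PT it was at 7.92 and 17.4 CPM, near the GABAergic mean of 15.3 and 15.97. For CACNB2, Pvalb was at 31.8 and 33.9 CPM. The other GABAergic subclasses averaged 450 and 380, against a glutamatergic mean of 439 and 424. Of 45 members tested, 15 were higher in GABAergic neurons and 21 lower (36, or 80.0%), against 42.8% of 16156 genes (20.8% higher, 22% lower). Among genes with at least 20 CPM, 30 of 31 members and 61.2% of all genes passed. The median member differed by -0.27 on the log2 scale, against 0.01 for all genes.

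TRPC4 had 388 and 358 CPM in GABAergic subclasses and 85.5 and 84.2 in glutamatergic subclasses and a log2 fold change of 2.80 ± 0.082 (SE) with edgeR adjusted p = 5.27e-17, although L5PT overlapped the GABAergic range. TRPC7 was higher as well, by 1.23 ± 0.092 (SE), but IT_B and IT_D were above every GABAergic subclass except Lamp5, and with counts summed over each class it did not pass (0.43, edgeR adjusted p = 0.0640). TRPC1 (log2 fold change -0.022) and TRPC6 (0.10) did not pass the test. In the other direction CACNA1E had 255 and 323 CPM in GABAergic subclasses and 1634 and 1693 in glutamatergic subclasses and a log2 fold change of -3.09 ± 0.092 (SE) with edgeR adjusted p = 6.95e-17. ITPR1 had 181 and 212 CPM in GABAergic subclasses and 862 and 924 in glutamatergic subclasses, with no overlap, and a log2 fold change of -2.48 ± 0.074 (SE) with edgeR adjusted p = 7.24e-17.

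Within families the classes took different members. SCN1A was higher in GABAergic neurons by 0.41 ± 0.052 (SE) on the log2 scale, and SCN2A and SCN3A were lower, at -0.54 ± 0.055 and -0.27 ± 0.039. For SCN3A, Pvalb was at 175 and 164 CPM, and the other GABAergic subclasses averaged 282 and 259. The glutamatergic mean of SCN3A was 279 in both animals. RYR3 was higher (1.12 ± 0.055) and RYR2 lower (-1.32 ± 0.070). Pvalb was an exception for RYR3, at 176 and 163 CPM against a glutamatergic mean of 361 and 337. CACNA1B was higher (0.92 ± 0.040), or by 0.45 with counts summed over each class, but in Pvalb it was at 395 and 386 CPM against a glutamatergic mean of 471 and 465. CACNA1A (-0.44 ± 0.067) and CACNA1C (-0.76 ± 0.040) were lower. CACNG2 was higher (0.94 ± 0.061), and CACNG3 and CACNG4 were lower (-0.998 ± 0.082 and -1.21 ± 0.093). Sst was an exception for CACNG3, at a mean of 593 CPM beside 595 in IT_A, the highest glutamatergic subclass. All of these passed the edgeR test with the same direction in both animals, but CACNA1A did not pass when counts were summed over each class (-0.088, adjusted p = 0.681). The partner list had 3 of 27 higher and 14 lower. HOMER1, a scaffold that links IP3 receptors to glutamate receptors, was lower at -2.31, and the sodium channel partner FGF12 was higher at 0.90.

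**Figure D4:**
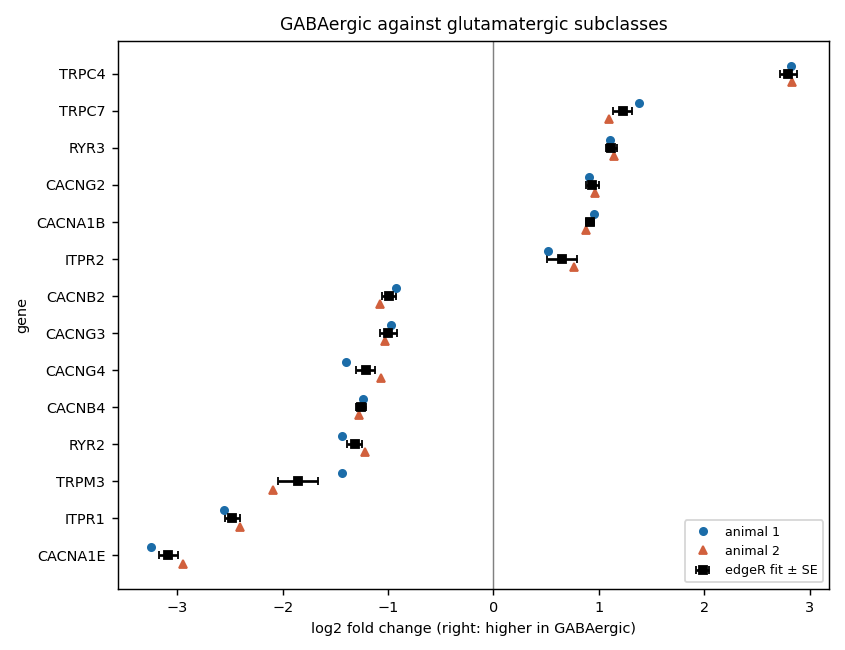
log2 fold change of GABAergic against glutamatergic subclasses for 14 named members among those with the largest differences, 6 higher and 8 lower. Squares with bars are the edgeR estimate ± SE, and the circle and triangle are the values of animal 1 and animal 2, from 2.80 for TRPC4 to -3.09 for CACNA1E, with both animals on the same side of 0 for every gene.

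The third comparison set Pvalb, the parvalbumin interneurons known for fast firing, against the other 4 GABAergic subclasses. Pvalb had more of RYR1, SCN4B, CACNB4, ITPR1 and SCN1A, and less of CACNA2D3, CACNB2, HCN4, SCN3B, RYR3 and CACNA1B. Of 45 members, 16 were higher and 10 lower (26, or 57.8%), against 24.5% of genes (14.7% higher, 9.77% lower), and among genes with at least 20 CPM 24 of 31 members passed, against 39.4% of genes. RYR1 had 21.2 and 26.95 CPM in Pvalb and 2.59 and 2.66 in the others and a log2 fold change of 3.24 ± 0.33 (SE) with edgeR adjusted p = 1.48e-07.

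Sodium channel subunits differed in both directions. SCN1A was higher with a log2 fold change of 0.91 ± 0.093 (SE) with edgeR adjusted p = 1.53e-07. SCN4B (log2 fold change 1.83 ± 0.27 SE) was higher, SCN3A (-0.63 ± 0.076 SE) and SCN3B (-2.15 ± 0.19 SE) lower, and in all of these Pvalb did not overlap any other GABAergic subclass. SCN2A was at 229 and 252 CPM in Pvalb and did not pass (log2 fold change -0.055, edgeR adjusted p = 0.774). CACNA2D3 was lower with a log2 fold change of -3.46 ± 0.43 (SE) with edgeR adjusted p = 2.42e-06, but Lamp5, at 67.8 and 177 CPM, overlapped Pvalb. CACNB2 was lower with a log2 fold change of -3.20 ± 0.15 (SE) with edgeR adjusted p = 1.46e-12 and no overlap, while CACNB4 was higher (1.36 ± 0.081 SE), also without overlap. TRPC6 was higher (2.64 ± 0.50 SE) but the Sst values, 18.9 and 21.3 CPM, overlapped those of Pvalb, 18.5 and 24.9. HCN4 was lower, at -2.96 ± 0.35 (SE), without overlap. Of 27 partner genes, 7 were higher and 7 lower, with PLCB4 at -2.61 and PLCB1, which like it forms IP3 from membrane lipid, at 1.46.

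The fourth comparison set L5PT, the thick-tufted neurons that project below the cortex, against the other 7 glutamatergic subclasses. CACNA1H, TRPC4, SCN4B, HCN4 and TRPC1 were higher, and TRPM3, RYR3, ITPR1 and CACNB2 lower. In SCN4B, HCN4, TRPC1, TRPM3, RYR3 and CACNB2, L5PT overlapped other glutamatergic subclasses. RYR3 was lower still in IT_C, at 53.7 and 72.1 CPM against 113 and 120 in L5PT. Of 45 members, 11 were higher and 7 lower (18, or 40.0%), against 16.5% of genes (10.4% higher, 6.08% lower), and among genes with at least 20 CPM 14 of 29 members passed, against 27.2% of genes. CACNA1H had 101 and 136 CPM in L5PT and 12.2 and 13.2 in the others, with no overlap, and a log2 fold change of 3.62 ± 0.15 (SE) with edgeR adjusted p = 1.74e-13. TRPC4 did not overlap either, with a log2 fold change of 3.34 ± 0.12 (SE) with edgeR adjusted p = 3.34e-14.

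HCN4 was higher by 1.11 ± 0.21 (SE), with L5NP in the same range. SCN1A (0.51 ± 0.091 SE), SCN3B (0.51 ± 0.14 SE) and SCN4B (2.19 ± 0.24 SE) were higher, whereas SCN2A (0.066 ± 0.097 SE) and SCN3A (-0.031 ± 0.069 SE) did not pass. ITPR1 was lower at -0.94 ± 0.13 (SE), without overlap. With the animal as a block, 25 of 45 members and 25% of genes passed, CACNA1E (-0.31, edgeR adjusted p = 0.0112) and RYR2 (0.24, edgeR adjusted p = 0.0188) among them. Of 27 partner genes, 2 were higher and 5 lower, or 13 in all with the block. PEX5L, the auxiliary subunit that brings HCN channels to dendrites, was the larger of the 2 at 3.58.

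The fifth comparison set IT_A against IT_C, the 2 largest of the IT subclasses. Few channels separated them, and those that passed were all higher in IT_A. These were 6 of 45 members (13.3%), TRPC6, CACNA1H, RYR3, CACNG4 and CACNG3 among them, against 10.8% of 16720 genes (5.87% higher, 4.98% lower), so that the share was near that of all genes. Among genes with at least 20 CPM, 4 of 28 members (14.3%) and 16.1% of all genes passed. With the animal as a block 18 members passed, 12 higher and 6 lower, and 28.9% of genes. TRPC6 had 26.2 and 51.9 CPM in IT_A and 3.66 and 3.95 in IT_C, with a log2 fold change of 3.41 ± 0.47 (SE) with edgeR adjusted p = 0.00164. RYR3 was higher with a log2 fold change of 1.50 ± 0.19 (SE) with edgeR adjusted p = 0.00107, CACNG4 by 1.13 ± 0.13 (SE) and CACNG3 by 1.06 ± 0.17 (SE). TRPM3 had a log2 fold change of 0.75 with edgeR adjusted p = 0.0539, and 7.53e-06 with the block. CACNA1A (-0.54, edgeR adjusted p = 0.143), RYR1 (-0.89, 0.0899) and TRPC4 (0.37, 0.478) passed with the block as well, at edgeR adjusted p = 1.76e-05, 7.14e-05 and 0.0107. Without a filter on low counts, TRPM3, CACNA1A and RYR1 also passed, and TRPM3 did so with RLE scaling and in DESeq2 too. SCN1A, SCN2A, SCN3A and CACNA1B had log2 fold changes between -0.15 and 0.18 and did not pass. Among 27 partner genes 3 were lower in IT_A, or 9 in all passed with the block, and PEX5L was again the largest at -2.04.

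The sixth comparison set OPC against OD, 2 stages of 1 lineage. Precursors had more CACNG4, ITPR3, CACNA1H, SCN1A and SCN3A, and oligodendrocytes more HCN2. Of 40 members tested, 19 were higher in OPC and 4 lower (23, or 57.5%), against 43.8% of 13483 genes (24.9% higher, 18.8% lower), and among genes with at least 20 CPM 18 of 25 members passed, against 59.4% of genes. CACNG4 had the largest difference, at 868 and 845 CPM in OPC and 9.62 and 9.16 in OD, with a log2 fold change of 6.41 ± 0.21 (SE) with edgeR adjusted p = 4.46e-15.

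The 3 broadly expressed sodium channel alpha subunits were higher in OPC. SCN1A was at 359 and 344 CPM against 40.7 and 54.7, with a log2 fold change of 2.80 ± 0.16 (SE) with edgeR adjusted p = 3.54e-12. SCN3A was at 283 and 239.5 against 24.96 and 41.1, with a log2 fold change of 2.91 ± 0.20 (SE) with edgeR adjusted p = 3.82e-11, and SCN2A was higher by 1.50 ± 0.21 (SE). These precursor levels were 71.0 and 64.9% of the neuronal level for SCN1A, 103 and 86.7% for SCN3A and 36.2 and 35.9% for SCN2A. In OPC the neuronal markers reached at most 26.4%, for NEUROD6, so that SCN1A and SCN3A were well above them and SCN2A closer. SCN3B was at 33.2 and 36.7 CPM in OPC, higher than in all neurons summed in both animals.

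Several calcium channel genes were higher in OPC as well. CACNA1H was higher by 4.17 ± 0.38 (SE), CACNG3 by 2.76 ± 0.22, CACNA1C by 2.54 ± 0.21, CACNA1E by 2.18 ± 0.20, CACNA1A by 2.00 ± 0.18 and CACNA1B by 1.41 ± 0.28, all past the edgeR threshold and without overlap. CACNA1B in OPC, at 16.6 and 24.5% of its neuronal level, and CACNA1E, at 34.7 and 34.6%, lay within the background range given above. ITPR3 was higher by 4.38 ± 0.33 and TRPM3 by 2.90 ± 0.22. HCN2 was lower in OPC with a log2 fold change of -2.81 ± 0.45 (SE) with edgeR adjusted p = 2.24e-05, and TRPM7 and TRPC4AP were lower by smaller amounts, at -0.66 ± 0.17 and -0.96 ± 0.14. RYR3 (-0.073) and ITPR1 (0.15) did not pass, and their levels in both subclasses were within the background range. RYR2 did not pass either (0.34, edgeR adjusted p = 0.178), but did with the block (0.0375), and its levels in both subclasses were within the background range too. Of 27 partner genes, 17 were higher in OPC and 5 lower, with the leak channel NALCN at 3.38 and PEX5L at -5.94.

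**Figure D5:**
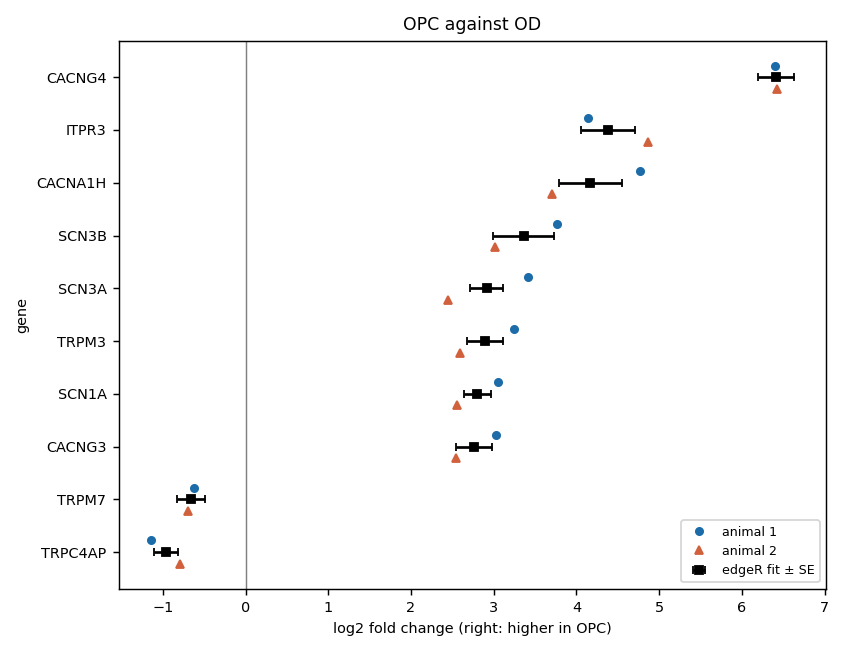
log2 fold change of OPC against OD for the called members with the largest differences among those with at least 20 CPM in the higher group in both animals, 8 higher and 2 lower in OPC (HCN2, at 16.2 CPM in OD of animal 2, is not drawn). Squares with bars are the edgeR estimate ± SE, and the circle and triangle are the values of animal 1 and animal 2, from 6.41 for CACNG4 to -0.96 for TRPC4AP.

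Between the animals, 30 members had at least 20 CPM in the libraries as a whole, and for 24 of them the 2 libraries of animal 1 did not overlap the 2 of animal 2, as for 80.6% of 6348 genes. Of the 30 members, 4 (13.3%) did not overlap and also differed by 1.5 times or more, against 3.26% of the 6348 genes. TRPC6 was at 13.8 and 14.1 CPM in the libraries of animal 1 and 29.1 and 28.2 in those of animal 2, and was higher in animal 2 in 13 of 18 subclasses, although the microglial values, 268 and 223 CPM, had the other order. CACNA2D3 was at 493 and 487 against 811 and 807 CPM, and was higher in animal 2 in 17 of 18 subclasses. HCN4 was at 25.6 and 27.1 against 16.9 and 16.9 CPM, and was higher in animal 2 in 7 of 18 subclasses. ITPR2 was at 45.9 and 51.1 against 33.3 and 31.2 CPM, and was higher in animal 2 in 3 of 18 subclasses. In all neurons summed it was at 20.8 and 13.6 CPM, and in astrocytes, of which animal 1 had 1273 nuclei and animal 2 had 816, at 813 and 812. With 1 animal per age, no test of age was made, and animal and age cannot be told apart.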

How the data were processed

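The authors aligned reads to opossum assembly ASM229v1 with Ensembl release 110 genes, extending each gene at its 3′ end by up to 5 kb where space allowed and counting introns. Cell Ranger is version 6.1.1 in the submitters' processing notes and 7.1.0 in the matrix header. Extension and incomplete annotation both change how many reads a gene receives, so levels were compared between subclasses within a gene, and no values per length were used. The deposited matrices hold raw UMI counts per gene and nucleus, and the metadata deposited with them give class, subclass, type and a doublet score as a fraction, as the authors computed it. Nuclei without a subclass label, which the study set aside as ambiguous or as doublet-rich clusters, entered no comparison.

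Counts of labelled nuclei were summed per animal and subclass. Sums were tested with edgeR 4.0.16 in R 4.3.3 (TMM scaling, filterByExpr by subclass, quasi-likelihood F test, Benjamini-Hochberg adjustment over all genes tested, threshold 0.05), after the script had been tested on simulated data. Neuronal comparisons were fitted on 26 sums, IT_A against IT_C on 8 and OPC against OD on 10. Named genes were those with adjusted p under 0.05, at least 20 CPM in the higher group and 1 direction in both animals, the 8 largest in each direction, plus a fixed list of channels. Members with at least 25% of their summed CPM in 1 subclass were named too. A few genes that these rules name are not reported here. The p-values measure the spread between these 2 animals. Members, gene lists and comparisons were chosen with earlier results of these data known.

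Sums with the same animal number come from the same animal, and their deviations from subclass means had correlations of 0.0034 to 0.60 over 153 pairs of subclasses. The animal was therefore used as a block in an alternative fit. Other alternatives were RLE scaling, DESeq2 1.42.0, no filter on low counts, doublet calls left out, equal numbers of nuclei, and, for levels, thinning each nucleus to 1000 UMIs. UMI totals of a subclass set the counting error of its CPM. The SE of a fold change comes from the edgeR fit and also includes the spread between the animals.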

Additional observations from a re-analysis of the deposited data

Results flagged for a closer look

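In nuclei that no comparison used, SCN3B was at values not distinguishable from those of its highest labelled subclass. In the GABAergic nuclei that the study left out as ambiguous, it was at 50.9 CPM in animal 1 (33 UMIs, exact Poisson 95% interval 35.0 to 71.5) and at 42.6 CPM in animal 2 (47 UMIs, 31.3 to 56.6). The highest labelled subclass, L6CT, was at 43.1 and 40.9 CPM, inside both intervals, which cover counting error only. No other member had a higher value than every labelled subclass in both animals in left-out nuclei with at least 10 UMIs.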

How the results depend on the processing

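Over the alternatives, 37 of 41 values of the counts of members lay within 1.5 times the reported count. Between neurons and non-neuronal cells, 22 members passed when every sum held 29 nuclei, against 36, and between OPC and OD 8 passed, against 23, with fewer members tested in both (32 and 16). Between IT_A and IT_C, 13 passed with no filter on low counts and 18 with the replicate block of the animal, against 6, and all genes called rose from 1814 to 4824 with the block. The block changed 8 of 149 calls of named members, each given with its comparison, and the cause was not tested. TRPM3 between neurons and non-neuronal cells turned from -0.69 to 0.81 with equal nuclei and to 0.64 with class sums, an alternative chosen after seeing the data. Class sums and a fit without endothelial sums gave 43 and 36 members there. The number lower in neurons was 9 with class sums, 4 without endothelial sums and 1 with equal nuclei, against 4. RLE scaling shifted all genes by -0.11 in that comparison. Of 946 values of named members, 897 kept their side of the threshold, 29 lost the call, 18 of the uncalled passed, and 2 turned. Direction was followed for called members only. The values without 1 animal (298) turned no called direction, but leave no residual degrees of freedom and have no test. The highest subclass was the same in both animals for 30 members without doublet calls and for 22 after thinning, against 27. Few UMIs limit the endothelial values most.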

Other observations

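The study divided the 18 subclasses further into 44 types, and several channel genes differed among the types of 1 subclass. These types are clusters of the same expression values and were picked here after their values were seen, so that no test was made. Pvalb_5, with 110 and 99 nuclei in animals 1 and 2, was at 233 and 188 CPM of T-type CACNA1H, and no other Pvalb type exceeded 8.1. It also had more ITPR1, at 1071 and 1077 CPM against at most 348 in the others, more TRPC7, at 327 and 451 against at most 140.2, and more RYR1, at 60.5 and 91.6 against at most 32.9. RYR3 was lower there, at 13.1 and 21.0 CPM, against at least 138 in the others. Pvalb_6, with 108 and 86 nuclei, was at 140.2 and 208 CPM of TRPC6, whereas the other Pvalb types were at or under 25.8.

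Sst_4, with 79 and 49 nuclei, was unlike the other Sst types in a set of channels. RYR3 was at 48.3 and 39.0 CPM, against at least 592 elsewhere in Sst, while TRPC4 was at 818 and 723 against at most 136 and CACNA1E at 1680 and 1911 against at most 1006. CACNA2D3 was high in every Sst type, from 2371 to 3564 CPM. Among IT_A types, CACNA1H was at 64.2 and 64.8 CPM in IT_A_4 and at or under 17.0 in the rest, and TRPC6 was at 3.7 and 6.2 CPM in IT_A_5 and at least 17.5 in the rest. In oligodendrocytes HCN2 was highest in OD_3, at 73.9 and 26.5 CPM, and lower in OD_4, at 6.8 and 2.7 CPM.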
